A study of Mus musculus with 4 samples.

Results

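The 10 genes described here encode the machinery with which a macrophage reads lipopolysaccharide (LPS), the cell wall component of Gram-negative bacteria. They are the co-receptor Cd14, the paralogous receptor partners Ly96 and Ly86, the adaptors Myd88, Ticam1 and Ticam2, and the kinase family Irak1, Irak2, Irak3 and Irak4. The members are defined by gene symbol, as a group of known function, and all 10 were found among the 23284 symbols of the deposited tables. The samples were bone marrow-derived macrophages from wild-type mice, all exposed for 1 h to 1 µg/ml LPS. The galectin-1 group (2 libraries) then received recombinant mouse galectin-1, a lectin that binds galactose-containing sugars, and the vehicle group (2 libraries) received phosphate-buffered saline, each for 24 h. The sources used here do not give the galectin-1 dose, the strain and age of the mice, or whether LPS was washed out. Both groups had received LPS, so the values compare galectin-1 with vehicle after LPS and not LPS with rest.

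In this cascade CD14 hands LPS to MD-2, the product of Ly96, which sits on the outer part of Toll-like receptor 4 and holds the lipid. The activated receptor recruits MyD88, which assembles IRAK4 with IRAK1 or IRAK2 and leads through TRAF6 to NF-kB and inflammatory cytokines. After uptake into endosomes the receptor signals through TRAM, the product of Ticam2, to TRIF, the product of Ticam1, and from there to type I interferon. IRAK-M, the product of Irak3, is a macrophage inhibitor of the MyD88 branch.

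None of the 10 genes passed the test for a change with galectin-1, in 2 libraries per group. The values were FPKM, a fragment number divided by the length of the transcript and by the size of its library. They were compared as log2(FPKM + 1) with limma, at a Benjamini-Hochberg adjusted p under 0.05 over the 9380 genes that averaged 1 FPKM or more. All 10 members passed that expression minimum, 0 were called, and their adjusted p ranged from 0.1001 to 0.925. Over all tested genes 1.19% were called, 57 higher and 55 lower. After quantile normalization 24 were higher and 47 lower, and 0 members were called. At an unadjusted p under 0.05 in limma, 3 members were higher (Cd14, Irak2 and Irak3) and 1 was lower (Ly96), which makes 4 of 10 against 23.2% of all tested genes. The groups did not overlap for 5 of the 10, against 55.4% of all tested genes. Of these, 4 were higher and 1 was lower, against 29.1% higher and 26.2% lower over all tested genes. The median log2 difference of the 10 was 0.04, beside 0.00 over all tested genes, and the median absolute difference was 0.06, beside 0.09 over all tested genes.

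The size that was tested can be bounded. The 95% intervals of the 10 log2 differences, which are limma's per-gene intervals without correction for the number of genes, ran from a lowest bound of -0.37 (Ly96) to a highest bound of 0.29 (Irak3). As ratios of FPKM + 1 these bounds were 0.772 and 1.22. With its own standard error a member would have needed an absolute log2 difference of 0.22 (Cd14) to 0.65 (Irak4) to pass. Differences on the log2(FPKM + 1) scale understate the change of low genes such as Irak4. The labels do not state that the libraries of a group came from separate mice or cultures, and the p-values then cover only the spread between these libraries. The libraries summed to 541138 to 557661 FPKM. Their depth relative to vehicle replicate 1, read from the steps of low FPKM values, was 1.02 and 0.879 for galectin-1 replicates 1 and 2 and 0.972 for vehicle replicate 2, and the absolute depth is unknown.

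**Figure D1:**
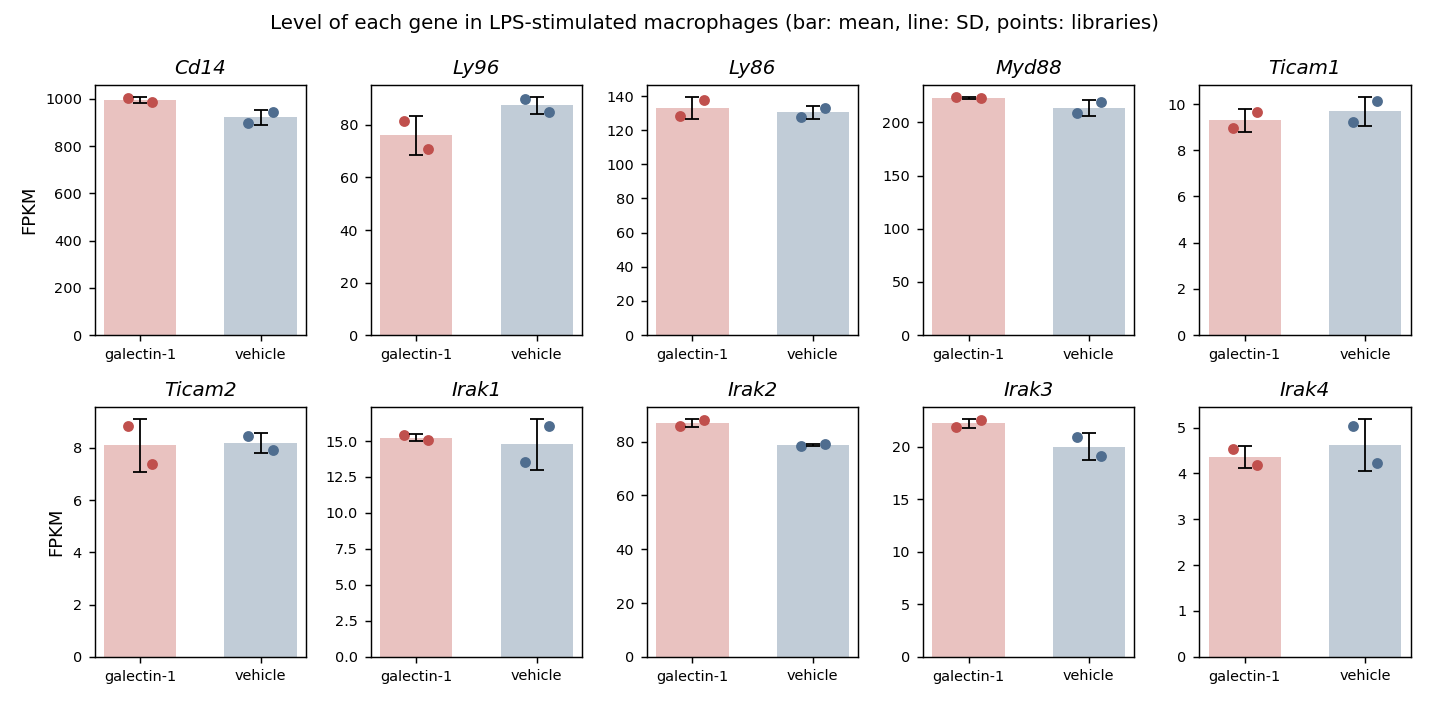
FPKM of each of the 10 genes (vertical axes, each from 0) in the galectin-1 and vehicle groups. Points are libraries, bars are means and lines are 1 SD (n = 2 per group). Cd14, Irak2, Irak3 and Myd88 have both galectin-1 libraries above both vehicle libraries, Ly96 has both below, and the other 5 overlap.

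The labelled cell type was borne out by its markers. The 8 macrophage markers, among them Csf1r, Cd68, Lyz2 and Adgre1 (listed as Emr1), summed to 9138 and 9139 FPKM with galectin-1 and to 8453 and 8403 FPKM with vehicle. Both galectin-1 libraries were above both vehicle libraries for 7 of the 8, and below them for Mertk (17.0 and 16.7 FPKM with galectin-1, against 19.8 and 18.3 FPKM with vehicle). Lyz2 made up most of the sum, which without it was 2868 and 2916 FPKM with galectin-1, against 2692 and 2761 FPKM with vehicle. T and NK cell markers summed to at most 0.125 FPKM, with Cd3e and Cd3g at 0 in all 4 libraries. The 7 neutrophil markers found summed to 83.3 and 82.9 FPKM with galectin-1 and to 85.0 and 89.4 FPKM with vehicle. Nearly all of that was Csf3r, at 80.7 and 81.3 FPKM with galectin-1 and 82.1 and 87.7 FPKM with vehicle, while Retnlg and Elane were at 0 throughout. The sums were 17.3 and 17.8 FPKM with galectin-1 against 22.7 and 22.7 FPKM with vehicle for 8 dendritic cell markers. Most of that was Fscn1 and Ccl22. Fscn1 had 7.84 and 8.18 FPKM with galectin-1 and 11.3 and 11.7 FPKM with vehicle. Ccl22 had 7.23 and 7.46 FPKM with galectin-1 and 8.97 and 9.12 FPKM with vehicle. Of the 8, 3 averaged 1 FPKM or more, while Flt3, Zbtb46, Xcr1 and Clec9a were below 1 FPKM in all 4 libraries. The 6 fibroblast markers summed to 17.8 and 17.2 FPKM with galectin-1 against 14.2 and 14.1 FPKM with vehicle. The part of these markers in the differences below was not tested. The markers Ly6g and Trac were not found under these symbols.

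The levels of the 10 members spanned a range of 213-fold. Averaged over the 4 libraries, the order was Cd14 at 959 FPKM, Myd88 at 218, Ly86 at 132, Irak2 at 82.8, Ly96 at 81.7, Irak3 at 21.2, Irak1 at 15.0, Ticam1 at 9.49, Ticam2 at 8.14 and Irak4 at 4.50 FPKM. Cd14 stood 79th among the 9380 tested genes, and Irak4 stood at the 30.6th percentile. Each neighbour in that order was separated from the next in all 4 libraries, except Irak2 and Ly96, whose ranges overlapped. Those genes changed places between the groups: Irak2 was above Ly96 in both galectin-1 libraries and below it in both vehicle libraries. Within a gene, the highest library exceeded the lowest by 1.07-fold (Myd88) to 1.27-fold (Ly96).

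Promoter sequence is shown for the adaptor that most Toll-like receptors share, Myd88, and for the kinases with the highest and the lowest level, Irak2 and Irak4. RefSeq windows of 300 bases, from 250 before to 50 after an annotated transcript start (build GRCm38.p6), were at hand for 7 of the 10 members. The 3 windows are chr9:119339969-119340268 on the minus strand for Myd88, chr6:113638217-113638516 on the plus strand for Irak2 and chr15:94543410-94543709 on the plus strand for Irak4. Capitals mark matches to the searched motifs, and each window is written 5′ to 3′ on the strand of its gene.
Myd88: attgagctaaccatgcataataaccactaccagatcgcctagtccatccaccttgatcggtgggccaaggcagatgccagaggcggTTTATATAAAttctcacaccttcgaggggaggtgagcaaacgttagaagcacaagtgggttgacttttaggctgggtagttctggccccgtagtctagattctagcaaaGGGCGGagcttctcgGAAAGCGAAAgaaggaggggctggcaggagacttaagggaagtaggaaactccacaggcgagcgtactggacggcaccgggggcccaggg
Irak2: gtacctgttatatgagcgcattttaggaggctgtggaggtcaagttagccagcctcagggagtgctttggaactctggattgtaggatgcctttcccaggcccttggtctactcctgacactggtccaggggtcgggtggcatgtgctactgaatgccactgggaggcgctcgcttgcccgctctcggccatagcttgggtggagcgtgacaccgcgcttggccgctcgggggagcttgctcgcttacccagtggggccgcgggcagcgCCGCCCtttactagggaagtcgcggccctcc
Irak4: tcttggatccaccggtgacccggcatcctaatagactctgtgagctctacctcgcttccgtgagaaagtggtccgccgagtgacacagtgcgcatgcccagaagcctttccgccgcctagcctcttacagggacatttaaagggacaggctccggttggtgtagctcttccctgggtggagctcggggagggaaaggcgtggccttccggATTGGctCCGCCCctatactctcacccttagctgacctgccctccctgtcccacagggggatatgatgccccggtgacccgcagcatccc
The motifs, searched on both strands, were the NF-kB consensus, the interferon response element core (GAAA repeated after a gap of 2 bases), the AP-1 site TGANTCA, the PU.1 site GAGGAAGT, the TATA box TATAAA, the GC box GGGCGG and the CCAAT box CCAAT. Myd88 held GAAAGCGAAA, a match to the interferon response element core, at bases 211 to 220 of its window. A match to that core was present in 3.44% of the 32851 windows in the table and in 1 of the 9 windows of these members. Myd88 also held a GC box and 2 overlapping TATA box matches, at bases 87 to 92 and 91 to 96. These TATA box matches began at -164 and -160 bases from the annotated transcript start. A TATA box match was present in 13.6% of all windows and in 1 of the 9 member windows. Irak2 held 1 GC box, and Irak4 held 1 GC box and 1 CCAAT box. GC boxes were found in 7 of the 9 member windows and in 35.7% of all windows. The 9 windows belong to 7 members, and the overlapping windows of Irak1 share a GC box that counts in both. The NF-kB consensus, present in 4.51% of all windows, the AP-1 site (7.81%) and the PU.1 site (3.20%) were in none of the 9 windows. Binding was not measured here, and a match or its absence describes only the letters of these windows.

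The LPS-binding co-receptors differed in opposite directions, and neither passed the test. Cd14, which encodes the surface protein that captures LPS (chromosome 18), had 1005 and 988 FPKM in the galectin-1 libraries, against 899 and 945 FPKM in the vehicle libraries. The means were 997 ± 12.2 FPKM with galectin-1 and 922 ± 32.3 FPKM with vehicle (SD, n = 2 each). Both galectin-1 libraries lay above both vehicle libraries, the log2 difference was 0.11 (standard error 0.03, 95% interval 0.03 to 0.19), and the gene did not pass the threshold (limma adjusted p = 0.130). The ratio of the Cd14 means, galectin-1 over vehicle, was 1.08, and that of the macrophage marker sums was also 1.08, or 1.06 without Lyz2. The same ratio was 1.10 for Irak2 and 1.11 for Irak3. The part of the marker difference in the values of these genes was not tested. In bulk RNA, fewer cells of a type and less RNA per cell cannot be told apart.

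Ly96, which encodes MD-2 (chromosome 1), had the largest absolute difference of the 10 and the opposite sign. It had 81.3 and 70.8 FPKM with galectin-1, against 89.7 and 85.1 FPKM with vehicle. Both galectin-1 libraries lay below both vehicle libraries, but the galectin-1 libraries themselves were 10.5 FPKM apart. The log2 difference was -0.20 (standard error 0.07, 95% interval -0.37 to -0.03, limma adjusted p = 0.166). Leaving out galectin-1 replicate 2 made it -0.10, and leaving out galectin-1 replicate 1 made it -0.30.

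Ly86, the paralogue that encodes MD-1 and pairs with the receptor-like protein CD180 (chromosome 13), had 129 and 138 FPKM with galectin-1 and 128 and 133 FPKM with vehicle. The groups overlapped, with a log2 difference of 0.03 (standard error 0.04, 95% interval -0.08 to 0.14, limma adjusted p = 0.739). Its partner gene Cd180 behaved otherwise: it had 214 and 217 FPKM with galectin-1, against 179 and 181 FPKM with vehicle, and rose by 0.25 on the log2 scale (standard error 0.03, limma adjusted p = 0.0371). The call of Cd180 was lost whichever of the 4 libraries was left out (limma adjusted p between 0.121 and 0.173).

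Tlr4, the receptor itself, had 22.9 and 23.0 FPKM with galectin-1, against 19.6 and 20.5 FPKM with vehicle, and did not pass (log2 difference 0.19, standard error 0.05, limma adjusted p = 0.105). Ratios of FPKM within a library do not depend on how libraries are scaled, and they are given here as a description, with no test. The Cd14 to Ly96 ratio was 12.4 and 14.0 with galectin-1, against 10.0 and 11.1 with vehicle. The Ly96 to Tlr4 ratio was 3.54 and 3.08 with galectin-1, against 4.57 and 4.16 with vehicle. The Ly86 to Cd180 ratio was 0.602 and 0.635 with galectin-1, against 0.713 and 0.734 with vehicle. The Cd14 to Tlr4 ratio was 43.8 and 43.0 with galectin-1, against 45.8 and 46.2 with vehicle. None of these 4 ratios overlapped between the groups: the Cd14 to Ly96 ratio was higher with galectin-1, and the other 3 were lower. Cd14, Ly96 and Tlr4 each enter more than 1 of them, so the ratios are not separate observations. Groups of single genes did not overlap for 55.4% of all tested genes, and no such share was computed for ratios. The cells' surface protein was not measured here.

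Among the adaptors, no gene of either branch passed the test. Myd88 (chromosome 9), the adaptor of the cytokine branch, had 224 and 223 FPKM with galectin-1, against 209 and 219 FPKM with vehicle. The groups did not overlap but lay within 3.70 FPKM of each other at their nearest, and the log2 difference was 0.06 (standard error 0.03, 95% interval -0.02 to 0.15, limma adjusted p = 0.336). Ticam1, encoding TRIF (chromosome 17), had 8.95 and 9.65 FPKM with galectin-1 and 9.24 and 10.1 FPKM with vehicle. Ticam2, encoding the bridging adaptor TRAM (chromosome 18), had 8.82 and 7.37 FPKM with galectin-1 and 8.47 and 7.91 FPKM with vehicle. Both TRIF-branch genes had overlapping groups, with log2 differences of -0.05 for Ticam1 (standard error 0.07, limma adjusted p = 0.705) and -0.02 for Ticam2 (standard error 0.09, limma adjusted p = 0.925). Their 95% intervals ran from -0.23 to 0.13 and from -0.25 to 0.21.

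Transcript of the cytokine-branch adaptor exceeded that of TRIF by a wide margin in every library. The Myd88 to Ticam1 ratio of FPKM was 25.02 and 23.1 with galectin-1, against 22.6 and 21.6 with vehicle. TRIF and TRAM transcripts were close to parity, at a Ticam1 to Ticam2 ratio of 1.01 and 1.31 with galectin-1 and 1.09 and 1.28 with vehicle. The ratio groups did not overlap for Myd88 and Ticam1 and overlapped for Ticam1 and Ticam2. Tirap, the adaptor that tethers MyD88 to the membrane, had 9.06 and 8.87 FPKM with galectin-1, against 8.16 and 7.75 FPKM with vehicle, and did not pass (0.15, standard error 0.06, limma adjusted p = 0.212).

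**Figure D2:**
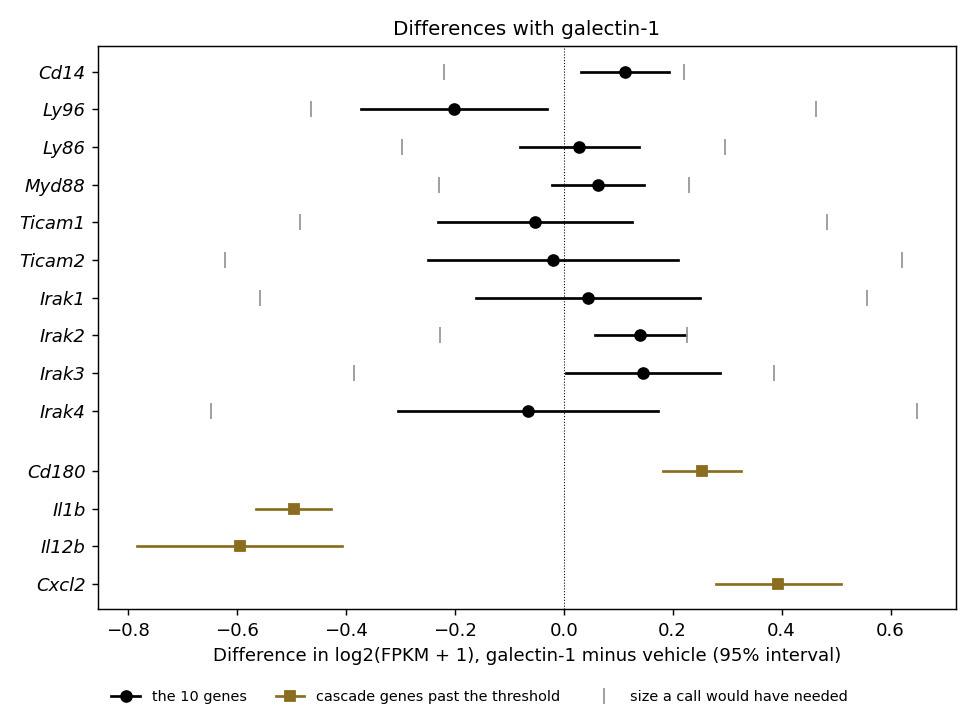
Difference in log2(FPKM + 1), galectin-1 minus vehicle (horizontal axis), for the 10 genes (circles) and for the 4 genes of the wider cascade that passed the threshold (squares), with 95% intervals from limma (n = 2 per group). Grey marks show the size at which each of the 10 genes would have passed: all 10 points lie inside their marks.

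None of the 4 kinase genes passed the test. Irak2 and Irak3 had groups that did not overlap, as had 55.4% of all tested genes. Irak2 (chromosome 6), which sustains the later phase of MyD88 signalling, had 85.8 and 88.1 FPKM with galectin-1, against 78.5 and 79.0 FPKM with vehicle. The means were 86.9 ± 1.61 FPKM with galectin-1 and 78.8 ± 0.326 FPKM with vehicle (SD, n = 2 each). It had the lowest adjusted p of the 10, 0.1001 in limma, with a log2 difference of 0.14 (standard error 0.03, 95% interval 0.06 to 0.22). The difference varied little when libraries were left out, between 0.12 and 0.16.

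Irak3 (chromosome 10), encoding the inhibitor IRAK-M, had 21.9 and 22.6 FPKM with galectin-1, against 20.9 and 19.2 FPKM with vehicle. Both galectin-1 libraries were above both vehicle libraries, by as little as 1.01 FPKM at their nearest. Its log2 difference was 0.15 (standard error 0.06, 95% interval 0.0035 to 0.29, limma adjusted p = 0.208), and leaving out vehicle replicate 2 made it 0.08, while leaving out vehicle replicate 1 made it 0.21. The ratio of Irak2 to Irak3 sets a family member that sustains signalling against one that restrains it. This ratio was 3.91 and 3.90 with galectin-1 and 3.75 and 4.12 with vehicle, with groups that overlapped.

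Irak1 (X chromosome), the kinase that docks TRAF6, had 15.4 and 15.0 FPKM with galectin-1 and 13.5 and 16.04 FPKM with vehicle. Its vehicle libraries were 2.52 FPKM apart, more than the group means, and the log2 difference was 0.04 (standard error 0.08, 95% interval -0.16 to 0.25, limma adjusted p = 0.792). Irak4 (chromosome 15), the kinase that MyD88 recruits first, had 4.54 and 4.19 FPKM with galectin-1 and 5.03 and 4.23 FPKM with vehicle. Here too the groups overlapped, with a log2 difference of -0.07 (standard error 0.10, 95% interval -0.30 to 0.17, limma adjusted p = 0.725). The first kinase of the chain was thus the scarcest transcript of the 10 in both groups. The Irak3 to Irak4 ratio was 4.84 and 5.39 with galectin-1, against 4.16 and 4.53 with vehicle, and the Irak3 to Irak1 ratio was 1.43 and 1.501 with galectin-1 and 1.55 and 1.19 with vehicle. The ratio groups were apart for Irak3 and Irak4 and overlapped for Irak3 and Irak1.

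**Figure D3:**
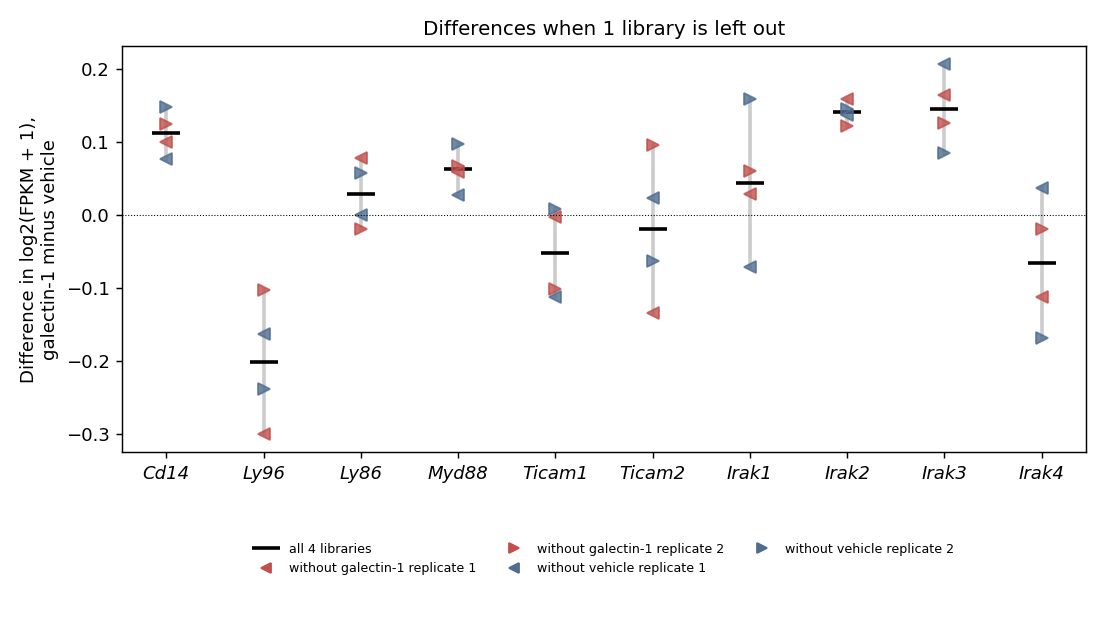
Difference in log2(FPKM + 1), galectin-1 minus vehicle (vertical axis), of each of the 10 genes with all 4 libraries (black bars) and with 1 library left out (triangles). Cd14, Myd88, Irak2 and Irak3 stay above 0 and Ly96 stays below 0, which groups without overlap fix in advance; the signs of Ly86, Ticam1, Ticam2, Irak1 and Irak4 depend on the library left out.

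Several members share genome sequence with another annotated gene, and the sources used here do not say how the deposited values assigned such reads or used strand. In the GENCODE annotation of the same build, Myd88 overlaps Acaa1a on the opposite strand over 1736 bases, Irak3 overlaps Tmbim4 on the opposite strand over 541 bases, and Irak4 overlaps Twf1 on the opposite strand over 3865 bases. Ticam2 overlaps Tmed7, a gene of vesicle transport, on the same strand over 14299 bases. In RefSeq coordinates Ticam2 (chr18:46558231-46574533) and Tmed7 (chr18:46585928-46597535) do not overlap. All overlaps given here are of whole GENCODE gene spans, introns included, and not of shared transcript sequence. Slc22a14, on the same strand as Myd88 over 5478 bases, was at 0 FPKM in all 4 libraries. The antisense gene Gm47009, over Irak3 for 1697 bases, was not found in the tables. None of Acaa1a, Tmbim4, Twf1 and Tmed7 passed the threshold. Acaa1a had 34.7 and 35.2 FPKM with galectin-1, against 37.6 and 38.5 FPKM with vehicle (log2 difference -0.12, limma adjusted p = 0.158), opposite in sign to Myd88. Twf1 was several times more abundant than Irak4, at 35.9 and 34.1 FPKM with galectin-1 and 36.0 and 34.6 FPKM with vehicle. Tmed7 had 34.6 and 34.2 FPKM with galectin-1 and 31.2 and 35.5 FPKM with vehicle. For Cd14, Ly96, Ly86 and Ticam1 no overlapping gene was annotated, and the partners annotated for Irak1 and Irak2 were 2 microRNA genes at 0 FPKM and 3 gene models not found in the tables.

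The wider cascade was described with 6 lists of other genes, drawn up with earlier results of these data known, 79 in all, of which 72 were tested. Of these, 2 rose (Cd180 and Cxcl2), 2 fell (Il1b and Il12b) and 68 did not pass, against 0.608% higher and 0.586% lower over all tested genes. Without small RNA entries, a fit chosen after the data were seen, 7 rose and 5 fell. Cd180 is a surface protein and the other 3 encode secreted products. Of the 44 tested adaptors, regulators, ligases, kinases and inhibitors 0 were called, which is near the share of 1.19% over all tested genes. Of these 44, alternative fits called Scimp without small RNA entries (limma adjusted p = 0.0435). They called Ikbke with the replicate number as a term (limma adjusted p = 0.0427).

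Of the genes for LPS capture and receptor handling, 1 of 11 tested rose (Cd180) and 10 did not pass. All 11 differences were positive, with a median of 0.09, beside 4754 positive differences among all 9380 tested genes. The common sign belongs to this cut of the genes, which was made with earlier results known and holds no member. Of the members that act at the same step, Cd14 had 0.11, Ly86 had 0.03 and Ly96 had -0.20. Casp4, which encodes the cytosolic LPS sensor caspase-11, had 251 and 239 FPKM with galectin-1, against 211 and 217 FPKM with vehicle (0.19, limma adjusted p = 0.0683). It passed in 1 of 13 alternative fits, the one without small RNA entries (limma adjusted p = 0.0350). Itgb2, an integrin chain that takes part in LPS binding, had 157 and 158 FPKM with galectin-1, against 145 and 146 FPKM with vehicle (0.11, limma adjusted p = 0.113). The macrophage marker sums, higher by a ratio of 1.08 with galectin-1 (1.06 without Lyz2), moved in the same direction as this list, and their part in it was not tested. Itgam is in both sets, so that they are not separate.

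Of 10 tested genes among the other adaptors, membrane regulators and interleukin 1 receptor chains, none passed, and the median was 0.04. At an unadjusted p under 0.05 in limma, 2 were higher and 3 lower, against 12.2% higher and 11% lower over all tested genes. Scimp (listed as A430084P05Rik), a transmembrane adaptor of Toll-like receptors, had 6.02 and 5.74 FPKM with galectin-1, against 7.64 and 9.11 FPKM with vehicle (-0.44, limma adjusted p = 0.0808). Dok3, an adaptor that dampens such signalling, had 6.89 and 6.90 FPKM with galectin-1, against 8.33 and 8.54 FPKM with vehicle (-0.26, limma adjusted p = 0.0986). Inpp5d, a lipid phosphatase that restrains it, had 8.13 and 8.89 FPKM with galectin-1, against 7.38 and 7.28 FPKM with vehicle (0.19, limma adjusted p = 0.179).

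Of 20 tested ubiquitin ligases and kinases after the IRAKs, none passed, and the median was 0.00. At an unadjusted p under 0.05 in limma, 5 were higher and 4 lower, against 12.2% higher and 11% lower over all tested genes. Traf6, the ligase next after the IRAKs, had 6.42 and 6.70 FPKM with galectin-1 and 6.80 and 6.86 FPKM with vehicle (-0.05, limma adjusted p = 0.679). Peli1, a ligase that modifies IRAK proteins, had 159 and 159 FPKM with galectin-1, against 144 and 147 FPKM with vehicle (0.13, limma adjusted p = 0.0986). Ikbke, a kinase of the interferon branch, had 145 and 151 FPKM with galectin-1, against 164 and 177 FPKM with vehicle (-0.20, limma adjusted p = 0.0935). Of 14 tested inhibitors of the cascade, none passed, the median was 0.00 and the range was -0.18 (Cyld) to 0.13 (Itch). Here 2 were higher and 1 lower at an unadjusted p under 0.05 in limma, against the same shares of 12.2% and 11%.

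The readouts of the MyD88 branch did not move one way. Of 8 tested, Cxcl2 rose, Il1b and Il12b fell and 5 did not pass, with a median of 0.02. Over all tested genes 0.608% were called higher and 0.586% lower, and this list was drawn up with earlier results known. In limma 4 of the 8 were higher and 3 lower at an unadjusted p under 0.05, against 12.2% and 11% over all tested genes. Among the 13 alternative fits Il6 passed in 4, Ptgs2 in 2 and Cxcl1 in 1. Cxcl2 had 243 and 259 FPKM with galectin-1, against 196 and 185 FPKM with vehicle (0.39, limma adjusted p = 0.0372). Il1b, the inflammasome cytokine, had 261 and 266 FPKM with galectin-1, against 371 and 373 FPKM with vehicle (-0.50, limma adjusted p = 0.00612). Il12b, encoding the p40 chain, had 12.5 and 14.5 FPKM with galectin-1, against 21.1 and 20.5 FPKM with vehicle (-0.59, limma adjusted p = 0.0432). These 3 genes were picked out because they passed, which takes a large difference. Their sizes therefore do not rank the readouts above the 10 upstream members, whose largest difference was 0.20 in absolute value. Cxcl1, a neutrophil chemoattractant like Cxcl2, had 61.1 and 60.8 FPKM with galectin-1, against 53.8 and 48.9 FPKM with vehicle (0.24, limma adjusted p = 0.0853). Ptgs2, the inducible cyclooxygenase, had 270.1 and 269 FPKM with galectin-1, against 239 and 243 FPKM with vehicle (0.16, limma adjusted p = 0.0614). Il6 went the other way, with 263 and 255 FPKM with galectin-1, against 295 and 293 FPKM with vehicle (-0.18, limma adjusted p = 0.0562). The calls of Cxcl2 and Il12b were lost whichever of the 4 libraries was left out (limma adjusted p between 0.0833 and 0.166 for Cxcl2 and between 0.0577 and 0.146 for Il12b), while Il1b passed in those fits. Without a filter on low values, and in limma without the variance trend, these 3 genes and Cd180 did not pass (adjusted p between 0.0637 and 0.138).

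Of 9 tested readouts of the TRIF branch, none passed in the main fit, and the median was 0.08. Among the 13 alternative fits Mx1 passed in 4, Ifit1 in 2 and Isg15 in 1. At an unadjusted p under 0.05 in limma, 5 were higher and 1 lower, against 12.2% higher and 11% lower over all tested genes. Ifit1, an antiviral protein, had 2393 and 2294 FPKM with galectin-1, against 2125 and 2095 FPKM with vehicle (0.15, limma adjusted p = 0.0747). Mx1, an antiviral GTPase, had 983 and 962 FPKM with galectin-1, against 1080 and 1129 FPKM with vehicle (-0.18, limma adjusted p = 0.0614). Members of either branch of readouts therefore lay on both sides of 0, beside adaptors whose log2 differences were 0.06 (Myd88), -0.05 (Ticam1) and -0.02 (Ticam2). The difference between a readout and its adaptor was not tested.

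**Figure D4:**
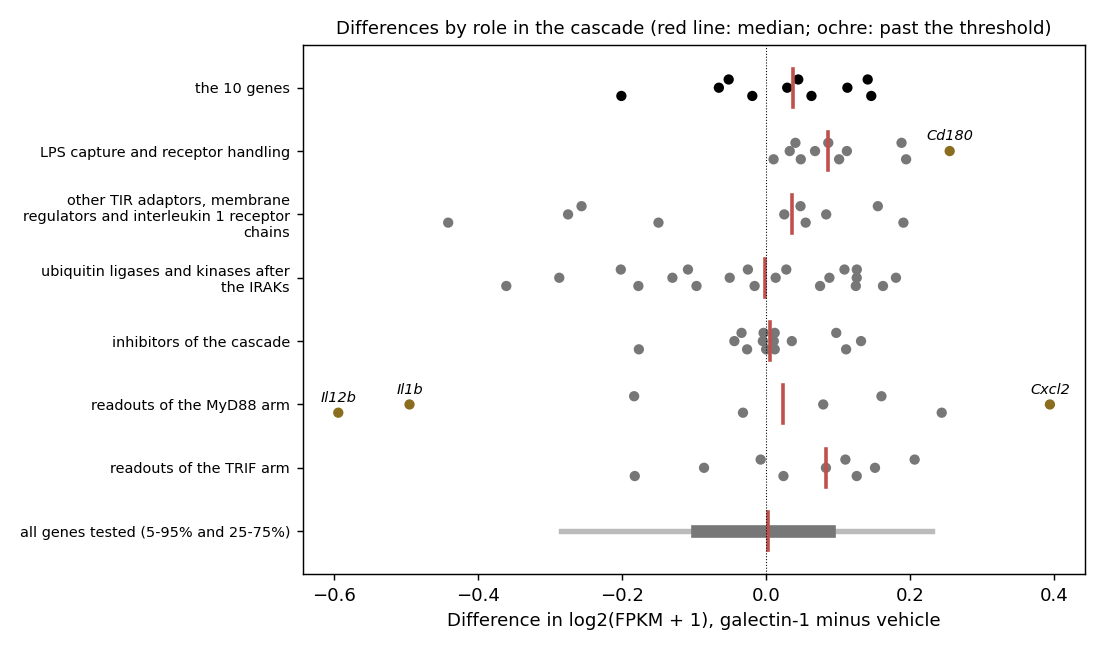
Difference in log2(FPKM + 1), galectin-1 minus vehicle (horizontal axis), of the tested genes of each role, 1 point per gene, with the median of each row in red. The bottom row spans the middle 90% and 50% of all 9380 tested genes. The 4 labelled genes passed the threshold; the 10 genes of the top row lie between -0.20 and 0.15.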

How the data were processed

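RNA sequencing gave 4 libraries of LPS-stimulated macrophages, 2 with galectin-1 and 2 with vehicle, after a stranded mRNA library preparation, per the labels' protocols. The authors deposited FPKM by gene symbol for each library. Cufflinks 2.2.1, SAMtools 0.1.19, Bowtie2 2.2.3 and TopHat2 2.0.13 and the build mm10 are named, without roles, per the submitters' processing notes. The annotation, the read filters and the use of strand were not given in the sources used here.

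The 10 members and the gene lists were chosen with earlier results of these data known. Deposited values were taken without rescaling, as log2(FPKM + 1), for genes that averaged 1 FPKM or more. Groups came from the sample titles. The test was that of limma 3.58.1 (R 4.3.3) with a variance trend, 2 residual and 3.89 prior degrees of freedom and 2-sided Benjamini-Hochberg adjusted p. With 2 libraries per group the smallest 2-sided permutation p is 0.333, so no such test was used. The fit was tested on simulated data. Named genes were all members and, of each list, the genes past the threshold and the 4 of smallest p among the rest, with Tlr4, Tirap and Traf6; not all are printed. Of 130 list and marker symbols 128 were found, 2 under another symbol. Libraries of a group correlated at 0.988 (galectin-1) and 0.983 (vehicle) on the log2 scale, and libraries of different groups at 0.979 to 0.986. At least 1 pair across groups was thus more alike than the vehicle pair, and none were identical. Without small RNA entries, chosen after seeing the data, the values were 0.998 (galectin-1), 0.997 (vehicle) and 0.995 to 0.996 across groups. There both pairs within a group were more alike than any pair across groups. Relative depth came from 1366 genes below 0.3 FPKM. Alternatives were other pseudocounts, filters, scalings and moderation, a replicate block and leaving out libraries. Gene coordinates and promoters are RefSeq's for GRCm38.p6, the assembly of mm10.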

Additional observations from a re-analysis of the deposited data

How the results depend on the processing

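In each of 13 alternative fits, 0 members were higher and 0 were lower past the threshold; Irak4, below the minimum mean of 5 FPKM, was not tested in that 1 fit and all 10 were tested in the other 12; the lowest adjusted p of a member in any of them was 0.0683 (Ly96, replicate block). The differences of Cd14, Ly96, Myd88, Irak2 and Irak3 kept their signs in all 13, which most of these fits fix in advance. Groups without overlap keep their sign when a library is left out or the pseudocount is changed. Other filters, other moderation and the replicate block leave the difference itself unchanged. Only quantile normalization and equal medians could have turned these signs. Leaving out 1 library turned the sign of the other 5 in some fits: the log2 difference ranged from -0.020 to 0.078 for Ly86, from -0.11 to 0.0077 for Ticam1, from -0.14 to 0.096 for Ticam2, from -0.071 to 0.16 for Irak1 and from -0.17 to 0.037 for Irak4. A group left with 1 library was assumed to vary like the other.

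Counts of calls depended on the settings, and the cause was not tested. Without 1 library, 6 to 12 of all genes were higher and 5 to 14 lower, and 0 cascade genes were higher and 1 lower. With a pseudocount of 0.01, 102 genes were higher and 101 lower, 4 of the lower ones in the cascade. Without a filter, 1 was higher and 2 lower, with 0 and 0 in the cascade; with a minimum mean of 5 FPKM, 127 were higher and 99 lower, with 4 lower in the cascade. Quantile normalization left 24 genes higher, 1 of them in the cascade; 33.8% of its calls were higher, in place of 50.9%. Limma without the trend gave 1 higher and 1 lower, with 0 and 0 in the cascade. Without small RNA entries, chosen after seeing the data, 189 genes were higher and 176 lower, with 7 and 5 in the cascade. The replicate block, with the replicate number as a term, gave 123 higher and 117 lower, 5 of the lower ones in the cascade; same-numbered libraries deviated together with a correlation of only 0.01, so the numbers are not taken to pair the libraries. Absolute depth is unknown, and the members of lowest level, Ticam2 and Irak4, had the widest intervals.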
